A study of Mus musculus with 4 samples.

Results

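The 9 genes described here encode the proteins that carry the first steps of B cell receptor signalling, from the receptor's signalling chains to the enzymes they engage. They were taken from a list of symbols, and every non-control probe whose accession is a RefSeq transcript of a listed symbol was used. This gave 10 probes for 9 genes, out of 39429 probes on the array and 20646 features (a gene, or an unnamed accession) tested. Btk had 2 probes and each other gene had 1. The study profiled splenic B cells of Aff3-/- and Aff3+/- mice with 1-colour (Cy3) Agilent whole mouse genome arrays, 2 arrays per genotype and 4 in all. In every group, B cells had been obtained as the CD43-negative fraction of the spleen and cultured for 3 days with LPS (10 ug/mL), which activates TLR4, and the cytokine IL-4 (10 ng/mL), which promotes class switching together with LPS. Both groups carry at least 1 disrupted Aff3 allele, and no wild-type or unstimulated sample was analysed here. Nothing in the labels ties a replicate to a mouse of its own, so the spread behind the p-values may be technical. Aff3 transcript levels were not analysed here, so the genotypes rest on the labels alone.

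A B cell receptor is a membrane immunoglobulin bound to Ig-alpha and Ig-beta, whose cytoplasmic tails hold tyrosine motifs called ITAMs. Src-family kinases such as Lyn and Blk phosphorylate the ITAMs, which recruits and activates the kinase Syk. Syk phosphorylates the adaptor Blnk, on which Btk and the phospholipase Plcg2 come together to release calcium and diacylglycerol, while the phosphatase Ptpn6 (SHP-1) dampens the cascade when inhibitory receptors engage it. LPS and IL-4 signal through other receptors, and no ligand of the antigen receptor is named in the labels.

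All 10 probes were well above background on all 4 arrays, and none carried a saturation or outlier flag. Signals ran between 336 and 171000 intensity units. Lyn (476 to 609), Blk (336 to 627) and the dimmer Btk probe (533 to 619) lay below the 75th percentile of every array. Feature Extraction's own error of each spot was 10.0% of its signal, which is 0.14 on the log2 scale. Values below are log2 signals relative to the array's 75th percentile, and a difference is Aff3-/- minus Aff3+/-. Levels of different probes cannot be set against each other, so each gene is compared with itself across arrays.

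RefSeq start-site sequences (build GRCm38.p6, 250 bases before to 50 after an annotated start) were at hand for 6 of the 9 genes. Those of Cd79a, Blnk and Btk are shown as examples. Cd79a and Blnk were dimmest on the second Aff3-/- array, as were Syk, Plcg2 and Ptpn6, and Btk was not. Capitals mark GGAAGT, a core sequence bound by ETS factors, and ATGCAAAT, the octamer bound by Oct factors, on either strand, and the lines run 5′ to 3′ on the gene's strand.
Cd79a, chr7:24897247-24897546, plus strand: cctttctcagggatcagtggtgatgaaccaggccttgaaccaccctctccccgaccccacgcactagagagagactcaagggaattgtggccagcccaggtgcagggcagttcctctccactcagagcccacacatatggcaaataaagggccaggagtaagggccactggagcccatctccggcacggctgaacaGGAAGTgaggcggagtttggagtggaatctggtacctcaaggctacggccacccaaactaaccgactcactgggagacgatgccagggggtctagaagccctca
Blnk, chr19:40994172-40994471, minus strand: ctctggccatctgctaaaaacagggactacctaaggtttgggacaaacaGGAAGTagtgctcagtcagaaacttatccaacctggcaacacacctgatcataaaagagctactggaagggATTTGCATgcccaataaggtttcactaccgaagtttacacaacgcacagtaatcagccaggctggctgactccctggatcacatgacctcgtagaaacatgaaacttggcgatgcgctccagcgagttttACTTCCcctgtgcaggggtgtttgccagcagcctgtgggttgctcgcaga
Btk, chrX:134583091-134583390, minus strand: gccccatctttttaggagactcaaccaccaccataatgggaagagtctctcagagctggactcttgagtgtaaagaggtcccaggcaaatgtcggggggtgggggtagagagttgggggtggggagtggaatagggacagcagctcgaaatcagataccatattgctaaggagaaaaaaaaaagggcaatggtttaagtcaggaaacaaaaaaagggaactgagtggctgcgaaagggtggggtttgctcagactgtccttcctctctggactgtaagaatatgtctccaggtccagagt

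GGAAGT was found in windows of 4 of the 6 genes (Blnk, Cd79a, Ptpn6 and Syk) and in 23.8% of the 32851 windows in the table. The windows of Plcg2 and Btk held neither GGAAGT nor the octamer. The octamer was found for Blnk alone among the 6, and in 1.74% of all windows. AGAGGAAG, searched as a string for the ETS factor PU.1, was found for Btk alone among the 6, and in 4.55% of all windows. It reads CTTCCTCT on the printed strand of Btk and is not marked there. In Cd79a the GGAAGT match began 54 bases upstream of the start, and in Blnk the octamer, which reads ATTTGCAT on the printed strand, began 130 bases upstream. The strings shown were picked from 11 searched after their matches were seen, and a match describes letters only.

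Comparison of Aff3-/- with Aff3+/- cells asked whether transcripts of the receptor cascade depend on Aff3 in activated B cells. No member passed the adjusted threshold of 0.05 (limma, adjusted p = 1.00 for each), as was true of every feature tested (0% of 20646). The log2 difference was below 0 for all 9 genes, with a median of -0.11, against 54.3% of features below 0 and a median of -0.011 over all features. Without Aff3-/- replicate 2 it was below 0 for 4 of 9 (median +0.018), against 51.3% of features. Without Aff3+/- replicate 1 it was below 0 for 5 of 9 (median -0.0028), against 54.6% of features. The genotypes overlapped for 7 genes, and for Lyn and Btk both Aff3-/- arrays lay below both Aff3+/- arrays, where 11.1% of all features did so. That count was 1 with median centring (7.91% of features) or with Btk's probes averaged (11.7%). With 1 array left out the rule is met more easily, and the count was 9 when this was Aff3-/- replicate 1 (40.3% of features), 2 when it was Aff3-/- replicate 2 (32.6%), 3 when it was Aff3+/- replicate 1 (25.2%) and 7 when it was Aff3+/- replicate 2 (31.4%). The reverse, higher in Aff3-/- without overlap, held for 0 of the 9 and for 8.45% of features. An unadjusted p under 0.05 was reached by 1 of 9 genes, Lyn, and by 2.04% of features.

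**Figure D1:**
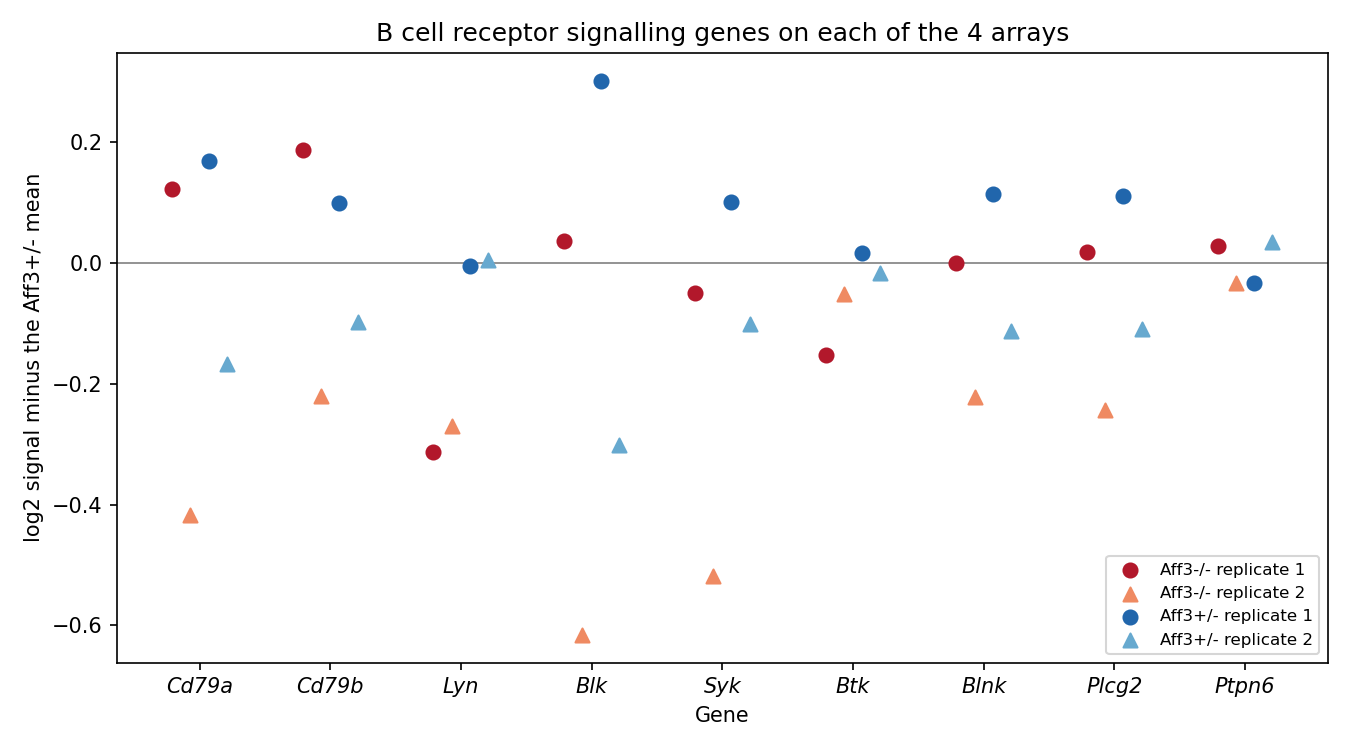
Each point is 1 array's log2 signal for a gene minus the mean of the 2 Aff3+/- arrays, for the 9 genes in the order of their place in the cascade; colours stand for genotypes and marker shapes for replicate numbers. The triangles of Aff3-/- replicate 2 lie below both Aff3+/- arrays for all 9 genes, for Ptpn6 by 0.00042, whereas the circles of Aff3-/- replicate 1 do so for Lyn and Btk only.

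The receptor chains came first. Cd79a, which encodes Ig-alpha, stood at 1.22 and 0.68 on the Aff3-/- arrays of replicates 1 and 2, against 1.26 and 0.93 on the Aff3+/- arrays. Only the second Aff3-/- array was outside the Aff3+/- range, and the difference was -0.15 ± 0.24 (SE, n = 2 arrays per genotype). Cd79b, which encodes Ig-beta, stood at 7.02 and 6.61 in Aff3-/- cells, against 6.93 and 6.74 in Aff3+/- cells. The Aff3-/- arrays lay on either side of both Aff3+/- arrays, and the difference was -0.016 ± 0.18. The partner chains need each other to reach the surface. Cd79a was highest on Aff3+/- replicate 1 and Cd79b on Aff3-/- replicate 1. Those 2 arrays differed by -0.045 for Cd79a and +0.088 for Cd79b (Aff3-/- minus Aff3+/-), each smaller than the spot error of 0.14. Without Aff3-/- replicate 2 the differences were +0.12 for Cd79a and +0.19 for Cd79b, and without Aff3+/- replicate 1 they were +0.020 and +0.082.

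Of the Src-family kinases, Lyn, which both starts the cascade and phosphorylates inhibitory receptors, gave the smallest p of the 9 genes. It stood at -1.47 and -1.43 in Aff3-/- cells, against -1.16 and -1.15 in Aff3+/- cells. The 2 arrays of each genotype lay close together and the genotypes did not overlap. The difference was -0.29 ± 0.11 (SE; limma, adjusted p = 1.00), a level 0.817 times that of Aff3+/- cells with a 95% interval of 0.667 to 1.00. It stayed between -0.31 and -0.26 under the 13 alternatives run, with adjusted p between 0.67 and 1.00. Its unadjusted p was under 0.05 in 4 of the 13 and over it in the other 9, among them the 4 fits that leave out an array. Across all features 8.54% differed by at least as much in either direction.

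Blk, the Src-family kinase most restricted to the B lineage, had almost the same mean difference as Lyn with a far wider spread. It stood at -1.29 and -1.94 in Aff3-/- cells, against -1.02 and -1.63 in Aff3+/- cells. In both genotypes the replicate 2 array was the dimmer, and the genotypes overlapped. The difference was -0.29 ± 0.31 (SE), with SDs of 0.46 in Aff3-/- cells and 0.43 in Aff3+/- cells (n = 2 each). Without Aff3-/- replicate 2 it was +0.035, and without Aff3+/- replicate 1 it was +0.011.

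Syk, the kinase that binds phosphorylated ITAMs, stood at 4.05 and 3.58 in Aff3-/- cells, against 4.20 and 3.998 in Aff3+/- cells. The first Aff3-/- array lay between the Aff3+/- arrays and the second below them. The difference was -0.28 ± 0.20 (SE), or -0.049 without Aff3-/- replicate 2 and -0.52 without Aff3-/- replicate 1. Btk, the Tec-family kinase whose loss in humans causes X-linked agammaglobulinaemia, stood at 2.41 and 2.51 in Aff3-/- cells, against 2.58 and 2.54 in Aff3+/- cells, for its brighter probe. Its genotypes did not overlap, but they lay 0.035 apart at the nearest, and the difference was -0.10 ± 0.11. The dimmer Btk probe stood at -1.30 and -1.14 in Aff3-/- cells, against -1.25 and -1.13 in Aff3+/- cells. That probe overlapped between the genotypes and differed by -0.035 ± 0.13.

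Blnk, the adaptor also called SLP-65, stood at 6.21 and 5.99 in Aff3-/- cells, against 6.33 and 6.10 in Aff3+/- cells, a difference of -0.11 ± 0.15 (SE). Plcg2, the phospholipase that Blnk positions next to Btk, stood at 5.08 and 4.82 in Aff3-/- cells, against 5.17 and 4.95 in Aff3+/- cells, a difference of -0.11 ± 0.16. For both genes the order of the 4 arrays was the same, with Aff3+/- replicate 1 at the top and Aff3-/- replicate 2 at the bottom. Without Aff3-/- replicate 2 the differences were -0.00043 and +0.018, and without Aff3+/- replicate 1 they were +0.0017 and -0.0028.

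Ptpn6, the phosphatase that inhibitory receptors recruit, varied least of the 9 genes. It stood at 4.494 and 4.433 in Aff3-/- cells, against 4.433 and 4.501 in Aff3+/- cells, a range of 0.068 over the 4 arrays. The difference was -0.0035 ± 0.11 (SE), and its 95% interval in linear terms ran from 0.811 to 1.23 times the Aff3+/- level. The sign was positive with median centring (+0.028), with normexp background correction (+0.031), without Aff3-/- replicate 2 (+0.027) and without Aff3+/- replicate 2 (+0.030).

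**Figure D2:**
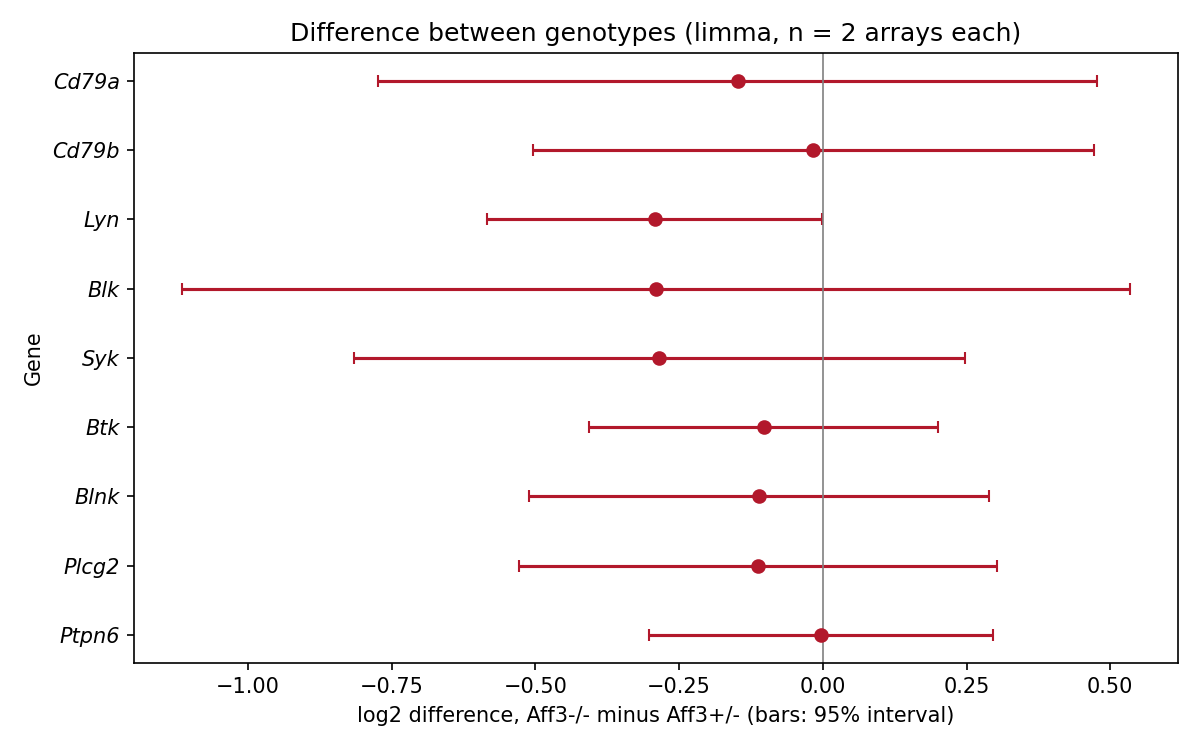
Points give the log2 difference, Aff3-/- minus Aff3+/-, for each of the 9 genes with its 95% interval from limma (n = 2 arrays per genotype). The intervals of all genes but Lyn include 0, and Lyn's upper bound of -0.00056 lies just below it.

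The widest interval was that of Blk, 0.462 to 1.45 times the Aff3+/- level, and the interval was 0.585 to 1.39 for Cd79a, 0.568 to 1.19 for Syk, 0.705 to 1.39 for Cd79b, 0.755 to 1.15 for Btk, 0.702 to 1.22 for Blnk and 0.693 to 1.23 for Plcg2. A level of 0.5 times that of Aff3+/- cells lay outside the intervals of all 9 genes but Blk. Smaller differences could not be told from the spread between arrays.

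Over the 9 genes the median within-genotype SD was 0.17 and the median absolute difference 0.11, and over all features these medians were 0.14 and 0.071. Lyn, Btk and Syk were apart from this, each with a difference above its own pooled within-genotype SD. Aff3-/- replicate 2 was the lowest array for 7 of the 9 genes, whereas 35.5% of features were lowest there. It lay below both Aff3+/- arrays for all 9, for Ptpn6 by 0.00042, against 40.3% of features. Aff3-/- replicate 1 lay below both for 2 of 9, against 32.6% of features, and it was below the Aff3+/- mean for 4, against 51.3%. Averaged over the 9 genes, the deviation from a gene's 4-array mean was +0.062 and -0.21 on Aff3-/- replicates 1 and 2, against +0.17 and -0.021 on Aff3+/- replicates 1 and 2. By list median Aff3-/- replicate 2 was also lowest for B cell (-0.14), T cell (-0.036), myeloid (-0.17), NK (-0.18) and stromal and endothelial markers (-0.22). It was not lowest for plasma cell markers (+0.078) or for erythroid and platelet markers (+0.43). The summed signal of the myeloid markers was highest on that array (102). Replicate 2 lay below replicate 1 in both genotypes for 6 of the 9 genes, against 39.8% of features. Aff3-/- minus Aff3+/- at replicates 1 and 2 was -0.27 and -0.31 for Blk, -0.11 and -0.11 for Blnk, and -0.092 and -0.13 for Plcg2. It was -0.15 and -0.42 for Syk, -0.045 and -0.25 for Cd79a, -0.31 and -0.28 for Lyn, and -0.17 and -0.035 for Btk. At replicate 1 it was above 0 for Cd79b (+0.088, then -0.12) and Ptpn6 (+0.061, then -0.068). Aff3+/- replicate 1 was the highest array for 6 of the 9 genes, against 27.0% of features. The low position of Aff3-/- replicate 2 and the high position of Aff3+/- replicate 1 move with the differences of most members. Their part in these differences was not tested. Without Aff3-/- replicate 2, Lyn (-0.31) and Btk (-0.15) were no nearer to 0.

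**Figure D3:**
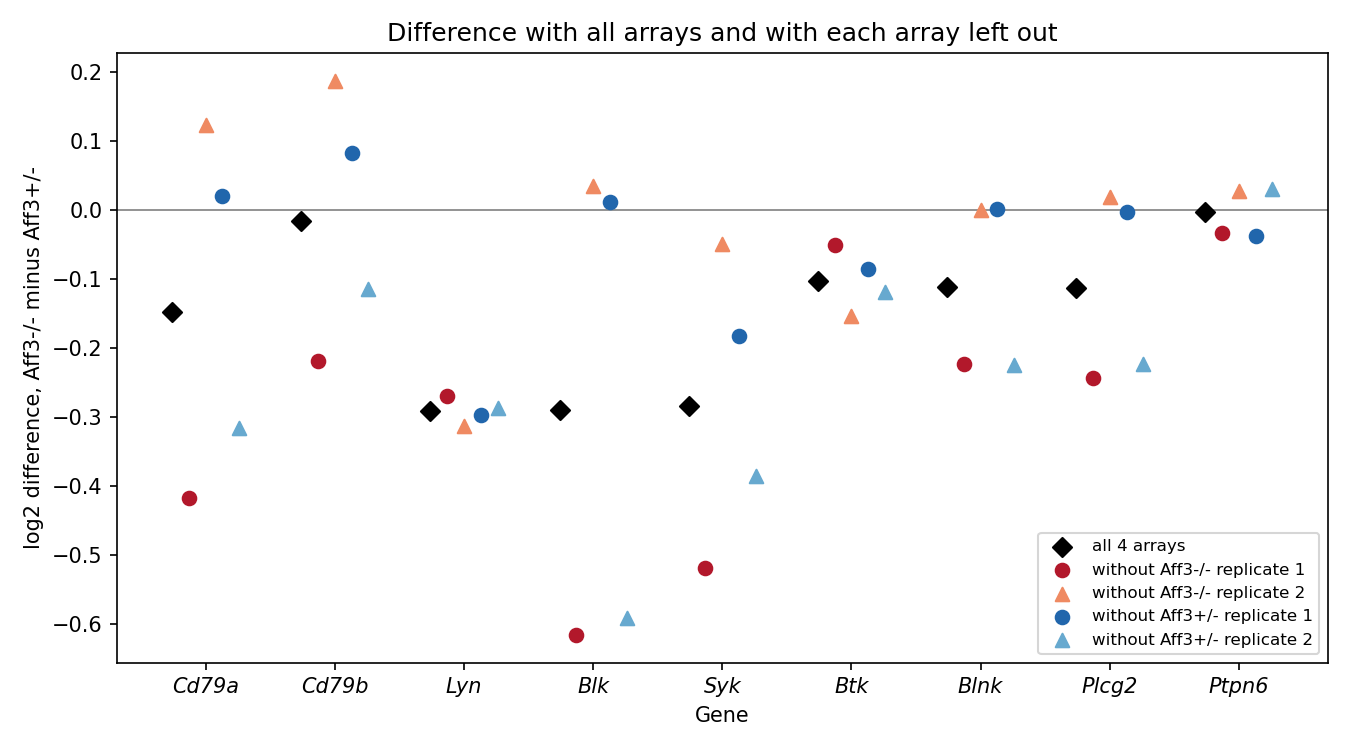
Points give each gene's log2 difference, Aff3-/- minus Aff3+/-, with all 4 arrays and with each array left out in turn. The values of Cd79a, Cd79b and Blk cross 0 when Aff3-/- replicate 2 or Aff3+/- replicate 1 is left out, whereas those of Lyn stay between -0.31 and -0.27.

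Among 12877 named genes above background on all 4 arrays, the 3 whose centred 4-array profile lay nearest to the mean profile of the 9 members were Baz2a, Hint3 and Uqcrh, at root mean square distances of 0.0042, 0.0065 and 0.0076 (log2). In all, 381 genes other than the members lay within 0.05 of that profile. Blnk and Plcg2 of the members were also this near (0.0295 and 0.0218), but they are part of that mean profile. With 4 arrays such a likeness is common, and it is given as a description.

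The wider pathway was described with 7 lists holding 110 genes, of which 102 were tested and 0 passed the adjusted threshold (limma). An unadjusted p under 0.05 was reached by 3 of the 102, against 2.04% of features. Of the 102, 60 were below 0 and 42 above it (54.3% and 45.7% of features), with a median of -0.016. Both Aff3-/- arrays lay below both Aff3+/- arrays for 8 genes and above them for 11, where 11.1% and 8.45% of all features did so. This split depended on the processing. It was 7 below and 18 above under median centring (7.91% and 12.1% of features). In the deposited values it was 12 below and 0 above (18.3% and 0% of features). Those values cover fewer genes of every list, such as 5 against 12 targets of antigen receptor signalling, so that split is not out of 102.

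Coreceptors and inhibitory receptors, which tune the signal at the membrane, lay lowest of these lists. Of 11 genes tested 9 were below 0 (54.3% of features) and 4 lay lower without overlap (11.1% of features). The list's median was -0.24, or -0.079 when Aff3-/- replicate 2 was left out. Lair1, an inhibitory collagen receptor, stood at -3.96 and -4.21 in Aff3-/- cells, against -3.54 and -3.44 in Aff3+/- cells. Its difference was -0.59 ± 0.14 (SE; limma, adjusted p = 1.00). The inhibitory Fc receptor Fcgr2b stood at 2.83 and 2.52 in Aff3-/- cells, against 3.04 and 2.83 in Aff3+/- cells, just without overlap (-0.26 ± 0.17). Siglecg, a sialic acid receptor that restrains the B cell receptor, was at -0.24 ± 0.16 without overlap, and at -0.24 for its other, dimmer probe.

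Negative regulators inside the cell gave 9 of 16 genes below 0 (54.3% of features) and a median of -0.016 (-0.19 without Aff3-/- replicate 1 and +0.087 without Aff3-/- replicate 2). Sh2b2, an adaptor of the SH2B family, stood at -0.65 and -0.52 in Aff3-/- cells, against -1.03 and -0.86 in Aff3+/- cells, a difference of +0.36 ± 0.13 (SE; limma, adjusted p = 1.00). Dok2, a docking protein that restrains Ras, was at +0.23 ± 0.12 and the ubiquitin ligase Cbl at -0.13 ± 0.11, each without overlap. In the PI3K branch 8 of 14 genes were below 0 (54.3% of features) with a median of -0.0083 (-0.11 to +0.068 with 1 array left out). Pdpk1, the kinase that activates Akt, was its 1 gene without overlap (+0.087 ± 0.12), where 8.45% of features lay higher and 11.1% lower without overlap. Adaptors and exchange factors had 11 of 18 below 0 (54.3% of features) with a median of -0.014 (-0.048 to +0.032 with 1 array left out). In that list Shc1 (+0.15 ± 0.11) and Sh3bp2 (+0.075 ± 0.11) lay higher without overlap, against 8.45% of features. Nck2 (-0.069 ± 0.11) lay lower without overlap, against 11.1% of features.

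Downstream of Plcg2, 16 of 20 genes of the calcium, diacylglycerol and NF-kB branch were below 0 (54.3% of features), with a median of -0.065. That median was -0.17 without Aff3-/- replicate 1 and +0.063 when Aff3-/- replicate 2 was left out. The calcineurin subunit Ppp3r1, above 0 in contrast to most of the list, stood at 1.82 and 1.85 in Aff3-/- cells, against 1.51 and 1.74 in Aff3+/- cells (+0.21 ± 0.13, SE, without overlap). Transcripts known to follow antigen receptor signalling, such as Egr1, Nr4a1 and Myc, were above 0 in 12 of 12 genes tested, against 45.7% of features, with a median of +0.18 (+0.11 when Aff3+/- replicate 2 was left out). Only 1 of the 12 did not overlap, where 8.45% of features lay higher without overlap. It was the phosphatase Dusp2, at 4.40 and 4.75 in Aff3-/- cells, against 4.15 and 4.37 in Aff3+/- cells (+0.32 ± 0.18). LPS also induces these transcripts, and none passed the adjusted threshold.

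Relatives of the 9 genes that act mainly in other cells formed the last list, with 7 of 12 below 0 (54.3% of features). Their median was -0.027 (-0.090 to +0.067 with 1 array left out). Lcp2, the SLP-76 adaptor that takes the place of Blnk in T cells, stood at -3.95 and -4.22 in Aff3-/- cells, against -5.20 and -4.77 in Aff3+/- cells. Its difference was +0.90 ± 0.20 (SE; limma, adjusted p = 1.00). Zap70, the T cell relative of Syk, was on the other side at -0.32 ± 0.13, and at -0.43 for its other probe. Yes1, a widely expressed Src-family kinase, stood at -6.85 on both Aff3-/- arrays, against -7.15 and -6.97 in Aff3+/- cells (+0.21 ± 0.12). Lcp2 and Yes1 were well above background on all 4 arrays, but their signals were dimmer than those of all 9 genes. Src, Txk and Clnk were not well above background on both arrays of either genotype.

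**Figure D4:**
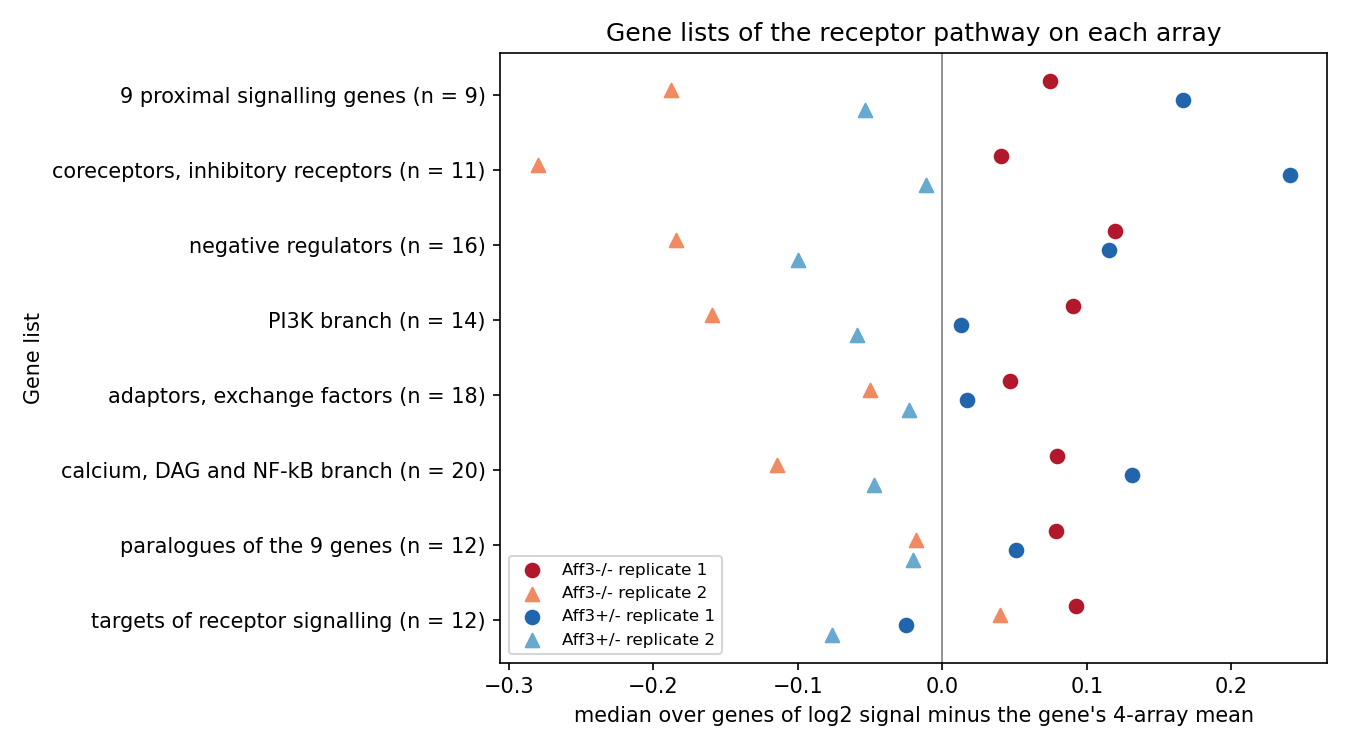
Points give, for each list and array, the median over genes of the log2 signal minus the gene's own 4-array mean. Aff3-/- replicate 2 is the lowest array for the 9 proximal genes (-0.19), the coreceptors (-0.28), the negative regulators (-0.18), the PI3K branch (-0.16), the calcium branch (-0.11) and the adaptors (-0.050), whereas for the targets of receptor signalling it stands at +0.040, above both Aff3+/- arrays.

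In bulk RNA, fewer cells of a type and less RNA per cell cannot be told apart. All 10 B cell markers were well above background on all 4 arrays, and their summed signal, in multiples of the array's 75th percentile, was 387 and 349 in Aff3-/- cells, against 378 and 366 in Aff3+/- cells. Of the T cell markers 7 of 10 were tested (Cd3g, Trat1 and Ubash3a were not well above background on both arrays of either genotype), with sums of 5.97 and 4.76 in Aff3-/- cells, against 7.24 and 5.99 in Aff3+/- cells. Myeloid markers, whose cells also use Lyn, Syk, Btk and Ptpn6, had 7 of 10 tested, without Lyz2, S100a8 and S100a9, and sums of 91.8 and 102 in Aff3-/- cells, against 96.9 and 101 in Aff3+/- cells. NK markers (3 of 6 tested, without Ncr1) summed to 2.33 and 1.91 in Aff3-/- cells, against 2.33 and 2.15 in Aff3+/- cells. Plasma cell markers (6 of 6) summed to 54.4 and 56.9 in Aff3-/- cells, against 46.9 and 52.3 in Aff3+/- cells. All 6 had a difference above 0, against 45.7% of features. Erythroid and platelet markers (3 of 7) summed to 0.0293 and 0.0256 in Aff3-/- cells, against 0.0166 and 0.0247 in Aff3+/- cells, and stromal and endothelial markers (4 of 6) to 0.397 and 0.332 in Aff3-/- cells, against 0.458 and 0.374 in Aff3+/- cells. Below 0 were 8 of 10 B cell markers, 4 of 7 T cell, 6 of 7 myeloid and 3 of 3 NK markers, against 54.3% of features. So were 1 of 3 erythroid and platelet markers and 3 of 4 stromal and endothelial markers. The part of these cell types in the differences above was not tested.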

How the data were processed

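The deposited scanner files hold 1 array each, extracted by Agilent Feature Extraction (version 10.7.1.1, per the submitters' processing notes), which per the file headers gives background-subtracted, spatially detrended intensity values. A second deposited table holds log2 values of 25372 probes centred on each probe's median over the arrays, whose scaling between arrays is not given in the sources used here (column medians -0.045 and 0.019 for Aff3-/- and 0.13 and -0.033 for Aff3+/- replicates 1 and 2, with the scanner values' direction). It held probes of 7 of the 9 genes.

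From these, the 1377 control spots and flagged outliers were left out, log2 processed signals were reduced by each array's 75th percentile (1317 and 1288 for Aff3-/-, 1274 and 1351 for Aff3+/- replicates 1 and 2), and probes well above background on both arrays of a genotype were kept (25131 probes). Probes well above background numbered 24942 to 25862 per array, and the number of arrays limits the precision. Names came from RefSeq transcripts of the GRCm38.p6 gene table for 26581 probes, since the files pair probes with accessions only, and 6 more were named by a unique synonym. Each gene was represented by its brightest probe. The difference was fitted across all features with limma 3.58.1 in R 4.3.3 (genotype only, 2 residual degrees of freedom, two-sided, Benjamini-Hochberg), and the fit was tested on simulated data. Values after ± are standard errors of log2 differences unless named as SD. Without overlap means that both arrays of a genotype lay on 1 side of both of the other. The genes and lists were chosen with earlier results of these data known, so no list test was run. Named pathway genes were the 3 of smallest p among those without overlap in each list. One gene that this rule takes is not reported here. The files lack the mean signal, so normexp used the median signal and background. All 4 arrays lay on 1 slide, and no arrays were identical.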

Additional observations from a re-analysis of the deposited data

How the results depend on the processing

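No member and no feature passed the adjusted threshold under any of the 13 alternatives (limma, lowest adjusted p of a member 0.67), and the differences of Lyn, Syk and Btk stayed below 0 in all of them. Cd79b and Ptpn6 have no value in the deposited table. The count of genes below 0 without overlap was 1 with median centring (7.91% of features) and 1 when a gene's probes were averaged (11.7%). With median centring Cd79b was +0.015 and Ptpn6 +0.028, and with normexp Ptpn6 was +0.031. Wider pathway genes above 0 without overlap numbered 18 with median centring (12.1% of features). They numbered 0 in the deposited values (0% of features), which cover fewer of these genes. Features with an unadjusted p under 0.05 numbered 422 of 20646 as reported. They numbered 811 of 32580 without the filter on dim probes. Of the 20646 they numbered 238 with an intensity trend and 1456 with the replicate number as a block. The labels give no meaning to the numbers, although deviations of same-numbered arrays correlated at 0.56 across features. With that block the standard error of Blk was 0.075 and that of Lyn 0.074, and both had an adjusted p of 0.67. An unadjusted p under 0.05 was also reached by Blk with that block and by Syk without Aff3-/- replicate 1.

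Leaving out 1 array in turn, a lone array meets the no-overlap rule more easily, so those counts are looser. Members below 0 without overlap numbered 2 to 9 (25.2% to 40.3% of features) and members above 0 without overlap 0 to 1 (20.3% to 32.9%). Members below 0 numbered 4 to 9 (51.3% to 54.6% of features). Wider pathway genes without overlap numbered 18 to 54 below 0 and 22 to 39 above it, and features with an unadjusted p under 0.05 300 to 972. The members' median ran between -0.24 and +0.018. The difference ran between -0.42 and +0.12 for Cd79a, -0.22 and +0.19 for Cd79b, -0.62 and +0.035 for Blk, -0.22 and +0.0017 for Blnk, -0.24 and +0.018 for Plcg2, and -0.037 and +0.030 for Ptpn6. A slide block was not run, because 1 slide held all arrays. The cause of these shifts was not tested.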
